A study of Saccharomyces cerevisiae with 6 samples.

Results

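The introns of 6 yeast genes of protein kinases, kinase activators and a protein phosphatase were examined: KIN28 (YDL108W), PHO85 (YPL031C), MRK1 (YDL079C), MOB1 (YIL106W), MOB2 (YFL034C-B) and GLC7 (YER133W). They were taken by gene name, as a group picked with earlier results of these data known, each gene has 1 intron in the deposited table, and the 6 are among 309 targeted introns of 298 genes. All 6 had enough reads to be tested (a mean of at least 10 reads over the libraries), as had 274 introns in all. The assay was MPE-seq, a targeted RNA sequencing method. Its pooled primers anneal just downstream of introns and are extended into cDNA, and a read then covers either the spliced exon junction or the intron. The compared groups were 3 libraries of Saccharomyces cerevisiae strain EJS7 with the genotype prp2-1 (replicates A to C) and 3 libraries of strain EJS1 with the genotype WT (replicates A to C). Both groups grew in YPD at 25 °C to mid-log phase and then spent 15 minutes at 37 °C. No library without the shift was compared, and each genotype is represented by 1 strain.

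Prp2 is an RNA-dependent ATPase that remodels the assembled spliceosome just before the first catalytic step, and prp2-1 is a temperature-sensitive allele. Spliceosomal introns of budding yeast carry a conserved 5′ splice site, a branch point whose adenosine attacks it, and a 3′ splice site ending in AG. Kin28 is the cyclin-dependent kinase of the general transcription factor TFIIH, and it phosphorylates the tail of RNA polymerase II. Pho85 is a cyclin-dependent kinase of phosphate signalling and the cell cycle. Mrk1 is a kinase of the glycogen synthase kinase 3 family. Mob1 activates the kinase Dbf2 in the mitotic exit network, and Mob2 activates the kinase Cbk1 in the network that controls cell morphogenesis and daughter-specific transcription. Glc7 is the catalytic subunit of type 1 protein phosphatase, which acts in glycogen metabolism and mitosis.

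Library totals were 1845258 to 2671271 reads in prp2-1 and 1612685 to 2516774 reads in WT, and replicate libraries differed by more than counting error (chi-square per degree of freedom 33.0 to 118). The sources used here do not say whether the replicates were separate cultures, so the spread between these libraries may be technical. The p-values rest on that spread as fitted with information shared between introns, not on each intron's own libraries alone. PRP2 itself was not analysed here. Among markers of another cell state, HMRA1 intron 1, in a copy of the mating-type gene that a cells transcribe, had 9 reads in prp2-1 and 17031 in WT. REC114, a meiotic recombination gene, had 1136 reads in prp2-1 and 32 in WT. The listed meiotic markers together made up 228 to 442 RPM (reads scaled to a common total of 1000000 per library) in prp2-1 and 119 to 153 RPM in WT, where the median tested intron had 520 to 636 RPM in prp2-1 and 680 to 713 RPM in WT. REC114 alone had a mean of 167 RPM in prp2-1 and 4.86 in WT. REC107 and HOP2 intron 2 were similar in both, with 75.1 and 31.3 RPM in prp2-1 and 73.7 and 32.3 in WT. PCH2 and MND1 were higher in prp2-1 (13.7 and 13.5 RPM, against 6.43 and 6.65 in WT), and DMC1 was lower (5.51, against 6.86). In prp2-1, REC102 and HMRA1 intron 2 had no read, and in WT, HOP2 intron 1 had none. The part of these differences between the strains in the results below was not tested.

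The introns of KIN28, PHO85, MRK1, MOB2 and GLC7 lie within coding sequence and are shown because their splice signals can be compared directly. Their positions on build R64 are chrIV:267726-267806 (plus strand, KIN28), chrXVI:492919-493020 (minus strand, PHO85), chrIV:314045-314336 (minus strand, MRK1), chrVI:63860-63973 (minus strand, MOB2) and chrV:432672-433196 (plus strand, GLC7). The GLC7 intron is 525 bases long, and only its first 40 bases (chrV:432672-432711) and last 60 bases (chrV:433137-433196) are given. Capitals mark the first 6 bases, the branch motif and the final AG, 5′ to 3′ on the transcribed strand, from the RefSeq genome sequence.
KIN28: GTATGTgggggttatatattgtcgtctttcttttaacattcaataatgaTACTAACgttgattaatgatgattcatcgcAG
PHO85: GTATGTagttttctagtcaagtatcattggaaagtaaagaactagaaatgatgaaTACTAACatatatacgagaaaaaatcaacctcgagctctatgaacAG
MRK1: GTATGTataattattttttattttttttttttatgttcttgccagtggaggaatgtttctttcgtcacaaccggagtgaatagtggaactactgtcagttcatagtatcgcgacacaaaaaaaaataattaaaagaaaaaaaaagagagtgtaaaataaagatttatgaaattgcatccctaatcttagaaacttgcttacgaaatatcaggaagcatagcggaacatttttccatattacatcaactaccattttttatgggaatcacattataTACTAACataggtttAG
MOB2: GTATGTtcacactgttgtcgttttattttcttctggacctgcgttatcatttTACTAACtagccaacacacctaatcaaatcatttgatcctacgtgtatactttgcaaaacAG
GLC7, first part: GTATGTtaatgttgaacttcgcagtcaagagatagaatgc
GLC7, last part: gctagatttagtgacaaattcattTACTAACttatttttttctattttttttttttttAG

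All 5 of these introns begin with GTATGT, as do 76.8% of the 246 tested introns that could be placed on the genome. The motif TACTAAC, searched on the transcribed strand, is present in all 5 and in 82.9% of the placed introns. The branch A of TACTAAC lies 11 bases before the end of the MRK1 intron, equal to the shortest such distance among the 204 introns with the motif. The distance is 26 bases in KIN28, 30 in GLC7, 41 in PHO85 and 56 in MOB2, around a median of 34 over the introns with TACTAAC. The introns are 81 bases (KIN28), 102 (PHO85), 114 (MOB2), 292 (MRK1) and 525 (GLC7) long, against a median of 147 bases over the placed introns. In 3 of them the first exon holds at most 28 coding bases, whereas it holds 177 in GLC7 and 412 in MRK1. Read in frame from the start codon, the unspliced RNA of each gene meets its first stop codon inside the intron. The stop comes after 10 codons in PHO85, 25 in MOB2, 30 in KIN28, 61 in GLC7 and 164 in MRK1, where the spliced reading frames hold 305, 287, 306, 312 and 501 codons. No protein was measured. No annotated gene overlaps any of these 5 genes.

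**Figure D1:**
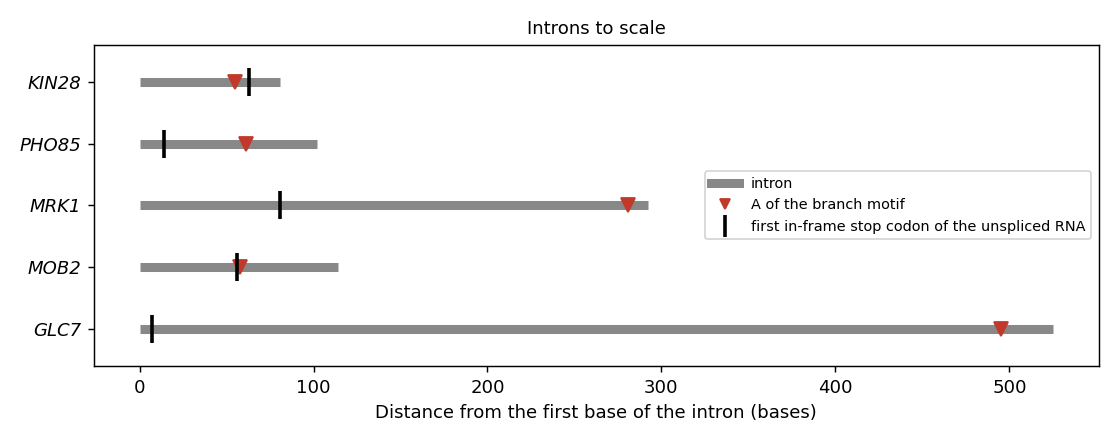
The introns of KIN28, PHO85, MRK1, MOB2 and GLC7 drawn to scale, with distance in bases from the first base of the intron on the horizontal axis; triangles mark the A of the branch motif and black bars the first in-frame stop codon of the unspliced RNA. The branch A is 11 bases from the end in MRK1 and 56 bases from the end in MOB2, and every stop codon lies inside its intron.

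The first comparison asked how completely each intron was removed in prp2-1 and in WT. The ratio of unspliced to spliced reads rose in prp2-1 in all 6 introns, by fitted log2 changes of the ratio of 4.57 in GLC7 to 9.71 in MRK1 (edgeR quasi-likelihood test, Benjamini-Hochberg adjusted p at most 9.15e-10 for each). Because 93.4% of the 274 tested introns were called higher and 0% lower, the count of 6 does not set these genes apart. The median log2 change of the ratio was 6.99 over the 6 introns, 4.64 over all tested introns and 5.40 over the 170 tested introns outside ribosomal protein genes. The unspliced percent did not overlap between the groups in any of the 6, as in 92% of tested introns. From the summed reads, where intervals cover counting error only, the ratio was 895-fold higher in prp2-1 in MRK1 (95% exact conditional interval 312 to 3550).

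Among the kinase genes, KIN28 was largely unspliced in both groups. Its unspliced percent was 99.8, 100 and 99.9% in prp2-1 replicates A, B and C and 95.7, 95.1 and 92.6% in WT replicates A, B and C. Every prp2-1 library was above every WT library, and the difference was 5.42 percentage points. The spliced reads were 2, 0 and 2 in prp2-1 and 22, 25 and 50 in WT, so that the ratio was 66.2-fold higher in prp2-1 (95% interval 25.0 to 248). The log2 change of the ratio was 5.86 ± 0.57 (SE). In WT, KIN28 had the 16th highest unspliced percent of the 274 introns, whose median was 3.74%.

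PHO85 was mostly spliced in WT and mostly unspliced in prp2-1. Its unspliced percent was 84.3, 89.3 and 93.0% in the prp2-1 libraries and 9.94, 12.3 and 11.4% in the WT libraries. The groups were far apart, and the prp2-1 libraries spread more (88.9% ± 4.35 in prp2-1 and 11.2% ± 1.22 in WT, SD, n = 3 each). The log2 change of the ratio was 6.06 ± 0.38 (SE), and the ratio of the summed reads was 71.7-fold higher (95% interval 61.4 to 84.0).

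MRK1 had the largest change of the ratio among the 6 with all libraries and the 10th largest of all 274 introns. Without prp2-1 replicate C, MOB1 (9.84) stood above MRK1 (9.75). The unspliced percent of MRK1 was 93.5, 100 and 95.5% in the prp2-1 libraries and 4.48, 1.20 and 2.04% in the WT libraries. The prp2-1 values rest on few reads, 31, 18 and 44 per library, and the percent of the summed reads was 95.7% (95% exact binomial interval 89.4 to 98.8%). The log2 change of the ratio was 9.71 ± 0.66 (SE).

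Both Mob genes were almost wholly unspliced in prp2-1 and mostly spliced in WT. In MOB1 the unspliced percent was 100, 99.6 and 97.5% in the prp2-1 libraries and 21.6, 31.1 and 23.4% in the WT libraries. In MOB2 it was 94.1, 97.3 and 93.5% in the prp2-1 libraries and 4.23, 9.0 and 3.49% in the WT libraries. MOB1 was thus higher than MOB2 in each group, with no overlap between the libraries of the 2 genes in either group. MOB1 kept 0, 1 and 8 spliced reads in prp2-1 replicates A, B and C, and most of them came from replicate C. Its log2 change of the ratio was 7.91 ± 0.60 (SE) with that library and 9.84 without it (adjusted p = 6.85e-08, edgeR), which is a larger fold by more than 1.5 times. The log2 change of MOB2 was 8.40 ± 0.57 (SE).

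GLC7, the phosphatase gene, had the smallest change of the ratio among the 6 in the full table and kept the largest share of spliced reads in prp2-1. In draw 1 of 200000 reads per library, KIN28 changed less (3.98 in KIN28 and 4.55 in GLC7). The unspliced percent of GLC7 was 81.6, 77.9 and 77.4% in the prp2-1 libraries and 17.3, 13.5 and 10.8% in the WT libraries. The values rest on 4119 to 6493 reads per prp2-1 library and 2505 to 5279 per WT library, the most reads of the 6 introns. The log2 change of the ratio was 4.57 ± 0.33 (SE), close to the median of 4.64 over all tested introns.

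**Figure D2:**
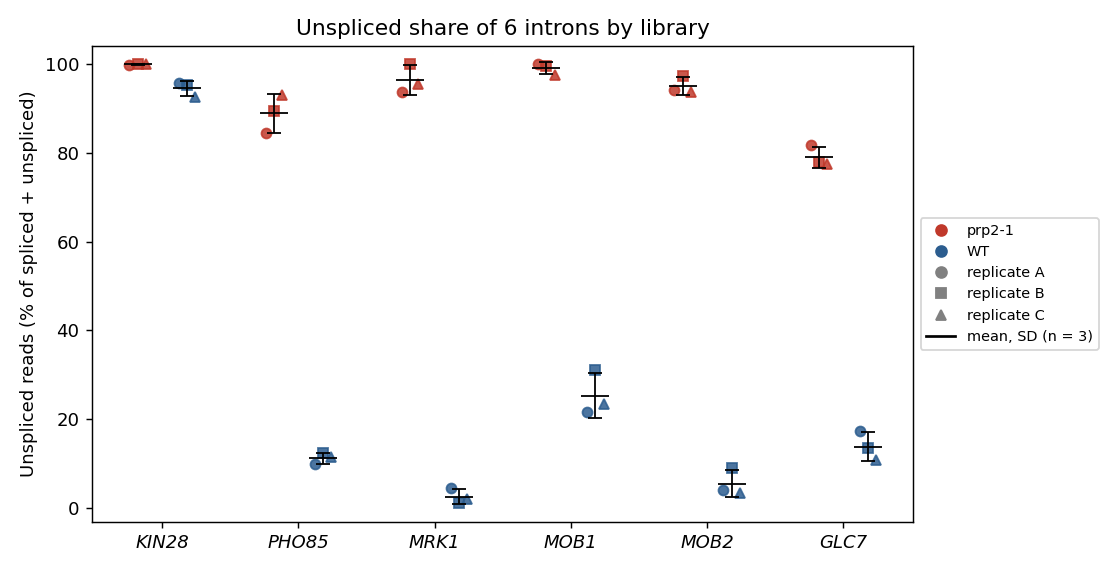
Unspliced reads as a percent of spliced plus unspliced reads (vertical axis) for the 6 introns (horizontal axis) in 3 prp2-1 libraries (red, left) and 3 WT libraries (blue, right); bars give the mean and SD. The prp2-1 libraries of all 6 introns lie above 77%, and the WT libraries of 5 introns lie below 32%, with KIN28 above 92% in both groups.

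In order of the mean unspliced percent in prp2-1, the introns were GLC7 (79.0%), PHO85 (88.9%), MOB2 (95%), MRK1 (96.3%), MOB1 (99.0%) and KIN28 (99.9%). GLC7 and PHO85, and PHO85 and MOB2, did not overlap between libraries. The neighbours MOB2 and MRK1, MRK1 and MOB1, and MOB1 and KIN28 did overlap and do not differ beyond their spread. In WT the order was MRK1 (2.57%), MOB2 (5.58%), PHO85 (11.2%), GLC7 (13.9%), MOB1 (25.4%) and KIN28 (94.5%). Of these neighbours, MRK1 and MOB2, and PHO85 and GLC7, overlapped, and the other neighbours did not. The order thus differed between the groups: MRK1 and MOB2 lay above PHO85 and GLC7 in prp2-1 and below them in WT.

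The authors also deposited counts from random draws of reads from each library, to 200000, 400000 and 800000 reads, and each depth was drawn 5 times. At these depths the spliced plus unspliced reads over the introns averaged 137745, 275571 and 551593 per library and draw. At 800000 reads the unspliced counts of GLC7 were 1.21 to 1.36 times those of the full table scaled to the same total, in all 6 libraries, while its spliced counts were 0.952 to 0.989 times. GLC7 was accordingly 83.0% unspliced in prp2-1 and 18.1% in WT in the drawn reads. MOB2 was 95.3% unspliced in prp2-1 and 11.4% in WT, against 95% in prp2-1 and 5.58% in WT in the full table, since its unspliced counts in the WT libraries were 1.5 to 2.61 times those of the scaled full table. In draw 1 at each depth, the log2 change of the ratio in MOB2 was 5.69, 6.13 and 7.0 at 200000, 400000 and 800000 reads, lower than 8.40 in the full table. In KIN28 it was 3.98, 4.57 and 5.16 at these depths and 5.86 in the full table. In MRK1 it was 8.99, 10.09 and 12.06, against 9.71, and in MOB1 it was 8.89, 9.85 and 7.82, against 7.91. In each of these 4 introns the fold was, at 1 or more depths, over 1.5 times away from that of the full table. All 4 had few spliced reads in prp2-1, and MOB2 also had the higher unspliced counts in WT given above. The part of either in these shifts was not tested. PHO85 (5.74 to 6.12) and GLC7 (4.55 to 4.56) moved less. Every one of these changes was upwards and passed the test (edgeR). At 800000 reads, PHO85 counts were lower than those of the scaled full table in all 6 libraries, at 0.818 to 0.924 times (spliced) and 0.857 to 0.977 times (unspliced). Unspliced KIN28 counts were 0.911 to 0.968 times. For the unspliced reads of GLC7, MOB2 and KIN28 and both kinds of PHO85 reads, the 2 tables thus do not hold the same counts. The sources used here do not say why. In WT at 800000 reads MOB2 and PHO85 were both 11.4% unspliced, whereas MOB2 was the lower of them in the full table.

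**Figure D3:**
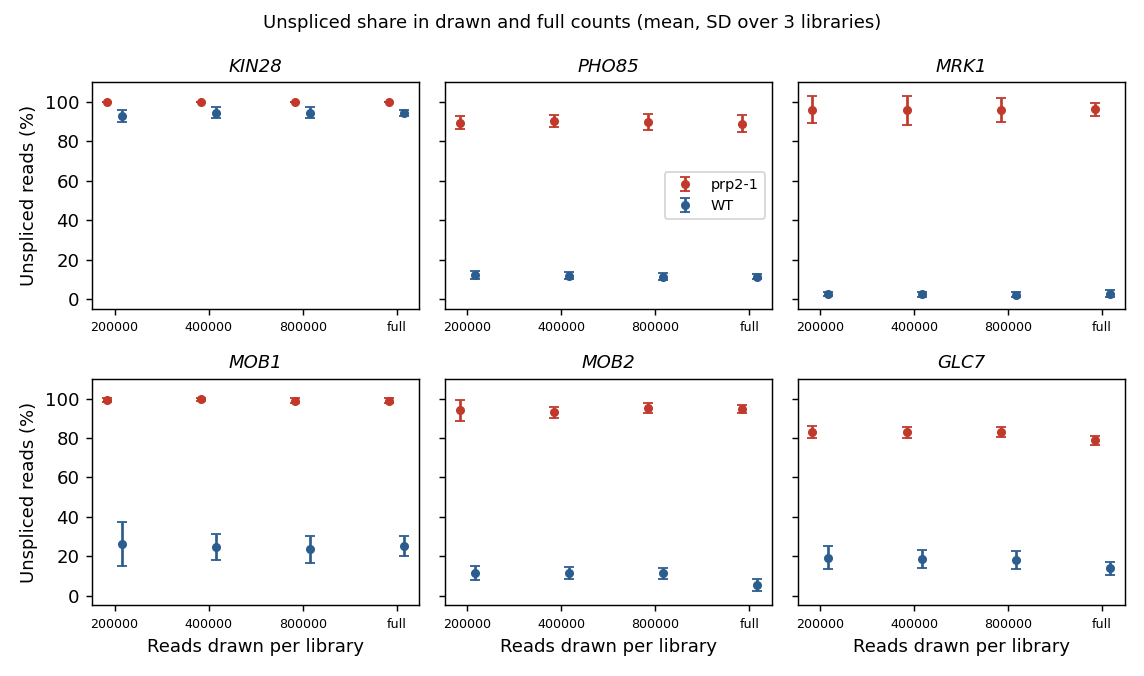
Unspliced percent (vertical axis) of the 6 introns in reads drawn at 3 depths and in the full table (horizontal axis), as means with SD over 3 prp2-1 libraries (red) and 3 WT libraries (blue). MOB2 in WT was at 11.4% with 800000 drawn reads and 5.58% in the full table, and GLC7 was at 83.0% and 79.0% in prp2-1 and at 18.1% and 13.9% in WT.

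The next comparisons took spliced, unspliced and total reads apart, each in RPM of all targeted introns. Since each intron has its own primer, levels are compared between groups and not between genes. Fewer transcribing cells and less RNA per cell cannot be told apart in these bulk libraries. Spliced reads fell in prp2-1 in all 6 introns, where 57.7% of tested introns were called lower and 6.2% higher (edgeR). The median log2 change of spliced reads was -4.87 over the 6, -0.91 over all tested introns and -2.67 over tested introns outside ribosomal protein genes.

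Spliced MRK1 reads were 1.08, 0 and 0.881 RPM in the prp2-1 libraries and 198, 208 and 267 RPM in the WT libraries. Their mean was 342-fold lower in prp2-1, and the fitted log2 change of -8.39 ± 0.44 (SE) was the 271st of 274 counted from the highest. Without prp2-1 replicate B, which had no spliced MRK1 read, it was -7.74. Spliced MOB1 reads were 0, 0.374 and 3.53 RPM in prp2-1 and 71.9, 72.6 and 84.6 in WT. Spliced MOB2 reads were 3.25, 1.5 and 3.53 RPM in prp2-1 and 112, 96.8 and 98.9 in WT. No prp2-1 library came near a WT library in these 3 genes, and the log2 changes of spliced reads were -5.75 in MOB1 (-8.06 without prp2-1 replicate C) and -5.19 in MOB2. KIN28 had 1.08, 0 and 0.881 spliced reads RPM in prp2-1 and 13.6, 12.6 and 19.9 in WT, a log2 change of -4.54 (-3.90 without prp2-1 replicate B). PHO85 had 47.7, 35.2 and 42.7 RPM in prp2-1 and 758, 616 and 646 in WT, a log2 change of -3.97. GLC7 kept the largest share of its spliced RNA, with 410, 468 and 647 RPM in prp2-1 and 1285, 1611 and 1870 in WT, which is 3.12-fold lower on average in prp2-1. Overlap between the groups was not counted over all tested introns for spliced reads. Its absence in these genes thus cannot be called particular to them. The adjusted p of the 6 falls was at most 8.46e-05 (edgeR, KIN28).

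Unspliced reads rose in all 6 introns, where 90.9% of tested introns were called higher and 2.19% lower (edgeR). The median log2 change of unspliced reads was 2.08 over the 6, 3.02 over all tested introns and 2.63 over tested introns outside ribosomal protein genes. The rise was 3.16 on the log2 scale in MOB2, whose unspliced reads were 52.0, 54.7 and 51.1 RPM in prp2-1 and 4.96, 9.58 and 3.58 in WT. It was 2.96 in GLC7, with 1822, 1648 and 2214 RPM in prp2-1 and 268, 252 and 227 in WT. In both genes the prp2-1 libraries were several times above the WT libraries. PHO85 rose by 2.17, and its prp2-1 replicate C (568 RPM) stood above replicates A and B (257 and 292), with 83.4 to 86.7 RPM in WT. MOB1 rose by 1.99, with 79.1 to 135 RPM in prp2-1 and 19.8 to 32.8 in WT. KIN28 rose by 1.32, with 536 to 818 RPM in prp2-1 and 246 to 305 in WT. In each of these 3 genes the lowest prp2-1 library was above the highest WT library.

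In MRK1 unspliced reads were few in both groups, with 15.7, 6.74 and 18.5 RPM in prp2-1 and 9.30, 2.52 and 5.56 in WT. The groups overlapped, since prp2-1 replicate B was below WT replicate A. The log2 change of 1.28 ± 0.48 (SE) passed the test (adjusted p = 0.00903, edgeR). It no longer passed when prp2-1 replicate C (0.98, adjusted p = 0.0923) or WT replicate B (0.90, adjusted p = 0.0941) was left out, or with reads scaled to introns over 98% unspliced in WT (0.95, adjusted p = 0.0747). The change was 2.19 in draw 1 of 800000 reads.

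**Figure D4:**
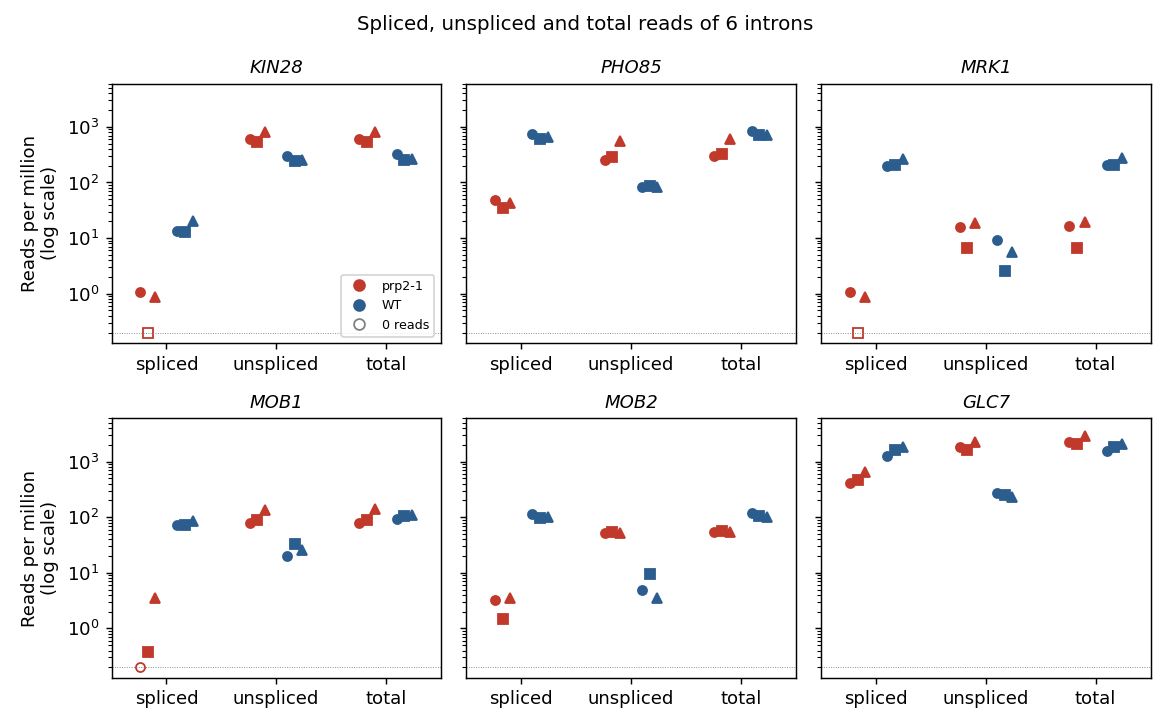
Spliced, unspliced and total reads in RPM of all targeted introns (vertical axis, log scale) for the 6 introns in 3 prp2-1 libraries (red, left) and 3 WT libraries (blue, right); open symbols on the dotted line are libraries with 0 reads. Spliced reads lie lower and unspliced reads mostly higher in prp2-1, and total MRK1 reads are 6.74 to 19.4 RPM in prp2-1 and 208 to 272 in WT.

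Total reads, spliced and unspliced together, went different ways among the 6 genes. They rose in KIN28 and GLC7 and fell in MRK1, MOB2 and PHO85, where 19.7% of tested introns were called higher and 23.7% lower (edgeR; 54 and 65 introns, or 27 and 91 with the scaling to introns over 98% unspliced in WT). Total MRK1 reads were 16.8, 6.74 and 19.4 RPM in the prp2-1 libraries and 208, 210 and 272 RPM in the WT libraries. The lowest WT library was more than 10 times the highest prp2-1 library. The log2 change of -3.99 ± 0.34 (SE; adjusted p = 1.56e-05, edgeR) was the 272nd of 274 counted from the highest, against a median of 0.00 over all tested introns. In MRK1, unspliced reads were thus higher by 2.36-fold on average in prp2-1 while total reads were 16.1-fold lower. Total MOB2 reads were 55.3, 56.2 and 54.6 RPM in prp2-1 and 117, 106 and 103 in WT, and the log2 change was -0.93 ± 0.17 (SE; adjusted p = 0.00199, edgeR). The libraries of each group agree closely and the groups do not overlap.

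Total KIN28 reads were 600, 536 and 819 RPM in prp2-1 and 319, 258 and 269 in WT. All prp2-1 libraries were higher, and the log2 change was 1.24 ± 0.19 (SE; adjusted p = 0.000605, edgeR), the 21st highest of 274. Total MOB1 reads were 79.1, 91.0 and 139 RPM in prp2-1 and 91.8, 105 and 110 in WT. The groups overlapped, and the log2 change of 0.04 ± 0.24 (SE) did not pass the test (adjusted p = 0.905, edgeR).

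For PHO85 and GLC7 the total reads were close to the test's threshold. Total PHO85 reads were 305, 328 and 611 RPM in prp2-1 and 842, 702 and 730 in WT, a log2 change of -0.83 ± 0.26 (SE; adjusted p = 0.0277, edgeR). The groups did not overlap, but the call was lost, at similar log2 changes, without prp2-1 replicate A (-0.65, adjusted p = 0.0572), prp2-1 replicate B (-0.70, adjusted p = 0.0930) or WT replicate A (-0.78, adjusted p = 0.0780). Total GLC7 reads were 2232, 2116 and 2861 RPM in prp2-1 and 1553, 1863 and 2098 in WT, a log2 change of 0.42 ± 0.15 (SE; adjusted p = 0.0474, edgeR). The log2 change was 0.49 without prp2-1 replicate B (adjusted p = 0.0530), 0.28 without prp2-1 replicate C (adjusted p = 0.0926), 0.29 without WT replicate A (adjusted p = 0.182) and 0.41 without WT replicate B (adjusted p = 0.109). In draw 1 of the drawn reads it was 0.68 to 0.70 and passed the test at each depth. When reads were scaled to the 13 tested introns over 98% unspliced in WT, GLC7 changed by 0.11 (adjusted p = 0.652, edgeR). KIN28 (0.93), MRK1 (-4.33), MOB2 (-1.21) and PHO85 (-1.17) kept their direction and call under that scaling, while MOB1 had the opposite sign (-0.28, adjusted p = 0.262). That scaling shifted the median over all introns by -0.29 on the log2 scale of total reads.

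The ratio of each intron over the 6 libraries was then set against those of all other tested introns, with the root mean square difference of log2 (unspliced + 0.5) / (spliced + 0.5) as the measure of likeness. The introns most like KIN28 were those of MPT5 (difference 0.74), which encodes an RNA-binding protein, and RRT8 (1.14). MPT5 was 99.96% ± 0.0617 unspliced in prp2-1 and 95.9% ± 0.764 in WT (SD, n = 3 each). Most like PHO85 were NMD2 (0.56), of nonsense-mediated decay, and APS3 (0.60), of a vesicle adaptor. Most like MRK1 were TFC3 (0.83), of a transcription factor of RNA polymerase III, and IST1 (1.11). TFC3 was 92.3% ± 2.45 unspliced in prp2-1 and 2.11% ± 0.790 in WT. Most like MOB1 were SMD2 (0.68), of an Sm protein of the spliceosome, and MAY24 (1.07). Most like MOB2 were PBA1 (0.76), of proteasome assembly, and ARP9 (0.83), of chromatin remodelling complexes. Most like GLC7 were STO1 (0.43), of the nuclear cap-binding complex, and TAF14 (0.58), of several transcription complexes. No member was among the nearest introns of another member.

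**Figure D5:**
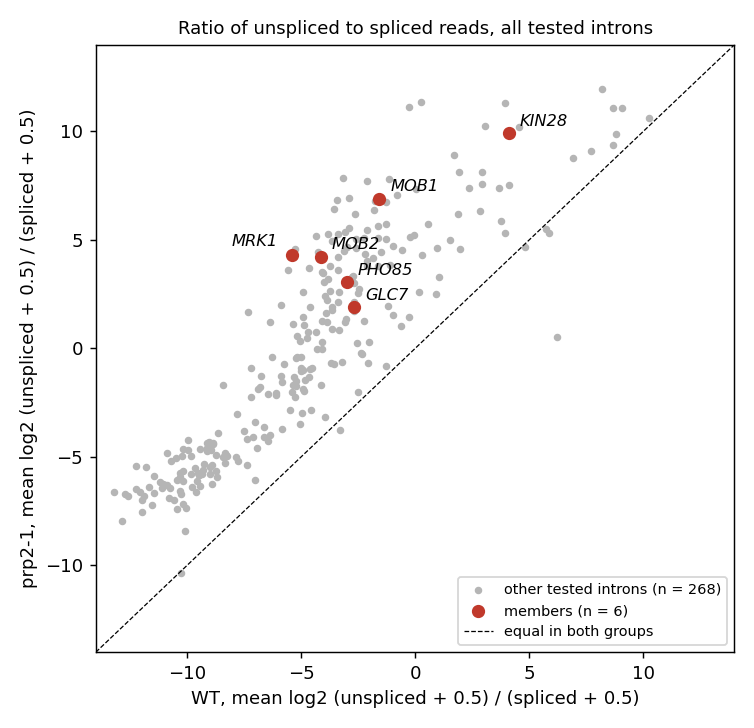
Mean log2 ratio of unspliced to spliced reads, with 0.5 added to each count, in 3 prp2-1 libraries (vertical axis) and 3 WT libraries (horizontal axis) for 274 tested introns; red points are the 6 members and the dashed line marks equal ratios. All 6 lie above the line, from GLC7 (log2 change of the ratio 4.57) to MRK1 (9.71).

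Other signalling and cell cycle genes with a targeted intron were described as a list of 7. It was chosen with earlier results of these data known. Of these, 6 were tested, and AMA1, of a meiotic activator of the anaphase-promoting complex, had 20 unspliced reads in prp2-1, 14 in WT and no spliced read, too few for the test. All 6 tested introns rose in the ratio, by 6.04 (log2) at the median, where 93.4% of all tested introns rose and their median was 4.64. NBL1, of the chromosomal passenger complex of Aurora kinase, was 97.5% ± 0.724 unspliced in prp2-1 and 8.74% ± 1.25 in WT (SD, n = 3 each). PTC7, of a type 2C protein phosphatase, was 93.5% ± 0.863 unspliced in prp2-1 and 31.9% ± 2.99 in WT, and its total reads rose by 1.24 on the log2 scale (adjusted p = 0.000288, edgeR). CNB1, of the regulatory subunit of the phosphatase calcineurin, was 58.0% ± 12.3 unspliced in prp2-1 and 3.77% ± 1.44 in WT, and its total reads fell by 0.95 (adjusted p = 0.00284, edgeR). The subunit genes PCC1 and CGI121 of the KEOPS complex, which contains the kinase Bud32, were 85.9% ± 5.13 and 94.1% ± 3.03 unspliced in prp2-1, against 6.86% ± 0.637 for PCC1 and 18.6% ± 3.26 for CGI121 in WT. ASC1, of the ribosome-associated homologue of the scaffold RACK1, was 5.24% ± 1.29 unspliced in prp2-1 and 0.0791% ± 0.0698 in WT. Its spliced reads were the exception in the list, with a log2 change of -0.14 (adjusted p = 0.497, edgeR), while those of the other 5 tested introns fell, as did those of 57.7% of all tested introns.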

How the data were processed

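The authors deposited raw counts of spliced and unspliced reads per intron, with no normalization, per the file headers. Per the submitters' processing notes, fastp 0.19.5, HISAT2 2.2.1, SAMtools and genome build R64 were used, and per the labels' protocols each library took 10 µg of RNA. The sources used here do not say how reads were put in the spliced or unspliced class or what was done with duplicates. Intervals cover counting error only and take each read as independent, so they would be too narrow if duplicates remained. In the authors' table of drawn reads, 2 column headers appear to be swapped: the totals grow with the column named for the seed, and that column was taken as the depth.

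The members, lists and tests were chosen with earlier results of these data known. The text names all members, all genes of the signalling list and the 2 nearest introns of each member. Introns with a mean of at least 10 spliced plus unspliced reads were tested with the quasi-likelihood F test of edgeR 4.0.16 under R 4.3.3, with Benjamini-Hochberg adjustment over all 274 tested introns and a threshold of 0.05. For the ratio, the model had terms for the library, for spliced or unspliced, and for the interaction of the last with genotype. Spliced, unspliced and total reads were fitted by genotype with normalization by library totals times TMM factors (from spliced plus unspliced reads). Standard errors are the log2 change over the square root of the F statistic. The fits of the ratio and of total reads were tested on simulated data with equally many rises and falls. Those of spliced and of unspliced reads were not. DESeq2 1.42.0, limma 3.58.1, other filters, scalings and depths, a replicate block and leaving out each library were the alternatives. RPM values are reads scaled to a total of 1000000 per library, over all 309 introns. Intron positions came from the coding exons of the RefSeq annotation of R64. The sequence and position of the MOB1 intron are not reported here.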

Additional observations from a re-analysis of the deposited data

How the results depend on the processing

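The ratio rose in all 6 introns under every alternative run, including DESeq2, limma, each filter, the drawn reads and each left-out library. Spliced reads fell in all 6 under every alternative that was run for them. Over all tested introns, 1 intron was called lower for the ratio with DESeq2 and with limma at a pseudocount of 0.5 or 1, and 0 to 1 when a library was left out, against 0.

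Total reads of GLC7 lost their call without TMM factors (0.39) and with scaling to introns over 98% unspliced in WT (0.11), but passed with drawn reads (0.70, 0.69 and 0.68 in order of depth). Total reads of MOB2 lost their call with 200000 drawn reads (-0.96) and those of PHO85 with 400000 (-0.60). Total reads of MOB1 changed sign with 200000 drawn reads (-0.013), with the 98% scaling (-0.28) and without prp2-1 replicate C (-0.23) or WT replicate A (-0.06). Leaving out libraries gave ranges of 0.28 to 0.52 for GLC7, -1.22 to -0.65 for PHO85 and -0.23 to 0.20 for MOB1. Unspliced reads of MRK1 lost their call at 200000 (0.90) and 400000 (1.15) drawn reads and with the 98% scaling (0.95), and ranged from 0.90 to 1.69 without single libraries. Over all introns, total reads were called higher in 32 to 50 without single libraries and in 27 with the 98% scaling (against 54), and lower in 42 at 200000 drawn reads (against 65). Spliced reads were called higher in 7 to 17 introns without single libraries, 11 at 200000 drawn reads and 2 with the 98% scaling, against 17. The cause of these differences was not tested.

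The unspliced percent of GLC7 in prp2-1 was 83.1, 83.0 and 83.0% in drawn reads of increasing depth, and in WT 19.3, 18.7 and 18.1%. That of MOB2 in WT was 11.4% at each depth. Of the 12 nearest introns, 9 remained with a pseudocount of 1 (not MAY24, ARP9 and APS3).

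Deviations of same-lettered libraries correlated by 0.0924, 0.205 and 0.272 for A, B and C in the log2 ratio, where each library correlated best with its own letter. In the log2 RPM of total reads the same-letter values were 0.273, -0.0709 and 0.0149. There WT replicate B correlated best with prp2-1 replicate C (0.245). The letters were not taken to pair the samples. With the replicate block the ratio was called higher in 258 introns, against 256, and total reads in 59, against 54, and no call on the 6 introns changed. Few reads limit MRK1, MOB1 and MOB2 in prp2-1.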

Other observations

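In draws of 200000 reads per library, MRK1 had 0 to 5 reads in prp2-1, and 3 of 15 draws over the 3 prp2-1 libraries held no MRK1 read, while the WT draws held 20 to 41. At 800000 reads 1 of 15 prp2-1 draws still held none. At 200000 reads MOB2 had 3 to 14 reads in prp2-1 and 8 to 21 in WT, and single draws ranged from 71.4 to 100% unspliced in prp2-1 and from 0 to 28.6% in WT. GLC7, with 350 to 496 reads in prp2-1 and 206 to 310 in WT at that depth, ranged from 78.9 to 88.7% in prp2-1 and from 12.4 to 27.2% in WT. Draws of 1 library share reads and are not replicates. KIN28 had 0 spliced reads in the full table in prp2-1 replicate B, whereas the 5 draws of 800000 reads held 1 between them.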
